A study of Mus musculus with 6 samples.

Results

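Tmem119, Cx3cr1, Siglech, Gpr34, Olfml3, Fcrls, Selplg and Sparc are genes for surface and secreted proteins of homeostatic microglia, the surveying state of the resident macrophages of the brain. They were chosen by symbol, 8 genes of the 20129 in the deposited table, and all 8 were found there. RNA sequencing had been run on microglia of Il3-/-5xFAD mice (3 libraries, replicates 1, 2 and 3) and of 5xFAD mice (3 libraries, replicates 4, 5 and 6), all labelled strain C57BL6/J, with no treatment named. The mice were 5 months old, and each library pooled 4 mice, 2 male and 2 female. Both groups carry the 5xFAD transgenes, mutant human genes driven by the Thy1 promoter that lead to amyloid deposition, and the Il3-/- group also lacks interleukin-3 (IL-3), a growth factor for blood-forming cells. Live cells positive for CD45 and CD11b were sorted, a gate that other myeloid cells also enter. Mice without the 5xFAD transgenes were not analysed here, so the levels below have no amyloid-free baseline.

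Homeostatic microglia hold their surface repertoire under signals such as TGF-beta and CSF1R ligands. Around amyloid plaques, microglia pass into a disease-associated state in which many homeostatic genes fall while Apoe, Spp1, Gpnmb and other plaque-associated genes rise, a passage that depends on the receptor TREM2. Of the 8 genes, Cx3cr1 and Gpr34 encode G protein-coupled receptors and Selplg an adhesion ligand. Siglech encodes a member of the Siglec lectin family and Fcrls a member of the Fc receptor-like family. Tmem119 encodes a single-pass membrane protein that serves as a microglial marker. Sparc and Olfml3 encode secreted proteins of the extracellular matrix. The comparison asked whether these transcripts differed when IL-3 was absent.

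No difference in these 8 genes passed the test. All 8 were slightly higher on average in Il3-/-5xFAD microglia, except that Siglech, Olfml3 and Selplg were lower after quantile normalization and Sparc was lower without Il3-/-5xFAD replicate 3 or 5xFAD replicate 5 and with array weights. As deposited, the log2 differences (Il3-/-5xFAD minus 5xFAD, on the log2(CPM + 1) scale, where CPM is a gene's count scaled to 1000000 counted reads) lay between 0.01 for Sparc and 0.21 for Gpr34 with a median of 0.10, beside a median of -0.0006 over all 11900 tested genes, of which 49.9% were positive. By limma, a linear model fitted across all genes, 0 of the 8 had an adjusted p under 0.05, against 0.882% of all tested genes, and adjusted p ran from 0.276 to 0.976. At an unadjusted p under 0.05 there was 1, Gpr34, against 16.5% of all tested genes. On the recovered reads edgeR called 0 of the 8 (0.504% of all tested genes) and DESeq2 0 (5.09%). At an unadjusted p under 0.05 there were 1 by edgeR (16.3% of all tested genes) and 3 by DESeq2 (16.8%). In 3 of the 8, Cx3cr1, Gpr34 and Fcrls, every Il3-/-5xFAD library lay above every 5xFAD library, a pattern that 9.65% of all tested genes showed, and in the other 5 the groups overlapped. The 95% intervals reached from -0.24 (Sparc) to 0.44 (Fcrls). A change in either direction as large as those of the 4 plaque-associated genes named below, which were picked for their large changes, lay outside each of them.

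The libraries held 27970850 to 37605490 reads, and the 8 genes drew 30212 to 204706 reads each per library, so that counting error was at most 0.575%. Il3 had 0 reads in each Il3-/-5xFAD library and 54, 61 and 29 reads in 5xFAD replicates 4, 5 and 6. The sort markers Ptprc (CD45) and Itgam (CD11b) had log2 differences of -0.06 ± 0.08 and 0.06 ± 0.10 (SE). Checked against their label, the 8 genes were abundant: per kb of transcript they ranked between 19 and 96 among the 19480 genes with a length, and the microglial markers P2ry12, Csf1r and Sall1 averaged 2979, 9734 and 792 CPM over the 6 libraries. Il3-/-5xFAD replicate 3 stood apart in that it had the fewest genes with a read (14435, against 15740 to 17245 in the other 5 libraries) and the lowest estimated library weight (0.412). It was also the highest library of its group for 5 of the 8 genes, and each gene below is given with the range of its difference over the 6 libraries left out in turn.

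**Figure D1:**
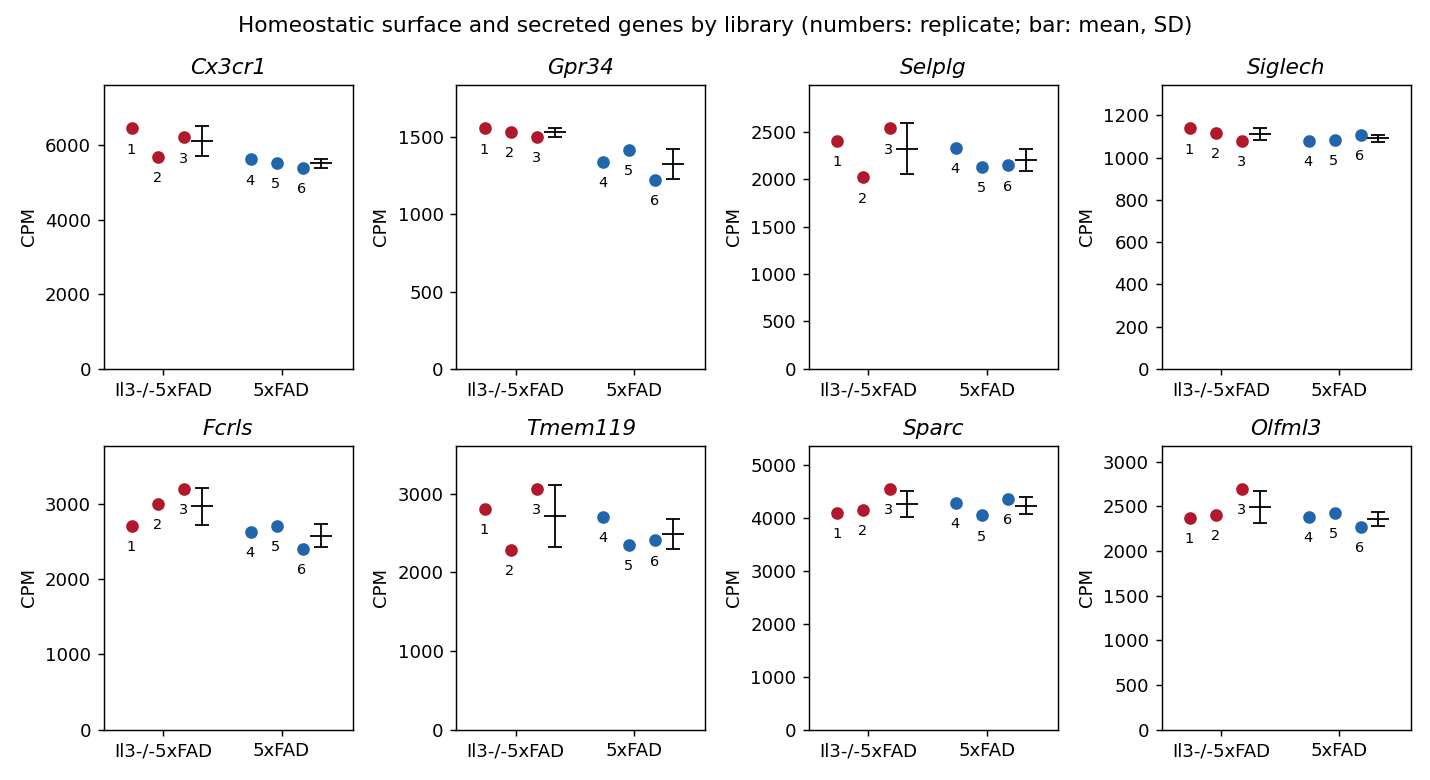
Levels of the 8 genes in CPM (vertical axes from 0) in each library, with Il3-/-5xFAD libraries in red and 5xFAD libraries in blue, replicate numbers under the points and the mean ± SD (n = 3) beside them. Groups are apart for Cx3cr1, Gpr34 and Fcrls (in Fcrls by 2.65 CPM) and overlap in the other 5 panels.

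Cx3cr1, on chromosome 9, encodes the receptor for fractalkine, a chemokine that neurons display on their surface. It had 6453, 5681 and 6205 CPM in Il3-/-5xFAD replicates 1, 2 and 3, against 5616, 5518 and 5396 CPM in 5xFAD replicates 4, 5 and 6. Every Il3-/-5xFAD library was above every 5xFAD library, the nearest by 65.5 CPM, while the coefficient of variation was 6.44% in Il3-/-5xFAD and 2.00% in 5xFAD. The mean was 1.11-fold that of 5xFAD (95% interval 0.921 to 1.33, limma adjusted p = 0.593), and the log2 difference of 0.15 ran from 0.11 (without Il3-/-5xFAD replicate 1) to 0.20 (without Il3-/-5xFAD replicate 2) with 1 library left out. Gpr34, on chromosome X, encodes a receptor for lysophosphatidylserine, a lipid that dying and activated cells expose. It had 1558, 1536 and 1501 CPM in Il3-/-5xFAD, against 1340, 1417 and 1222 CPM in 5xFAD. The Il3-/-5xFAD libraries were close together and all above the 5xFAD libraries, the nearest by 84.2 CPM. The difference of 0.21 ± 0.09 (log2, SE) was the largest of the 8, its 95% interval of 1.01- to 1.33-fold was the only 1 of the 8 that lay wholly above no change, and its limma adjusted p was 0.276. With 1 library left out it ran from 0.15 (without 5xFAD replicate 6) to 0.26 (without 5xFAD replicate 5).

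Fcrls, on chromosome 3, encodes an Fc receptor-like protein with a scavenger receptor domain and is a marker that separates mouse microglia from blood monocytes. It had 2708, 3001 and 3197 CPM in Il3-/-5xFAD, against 2632, 2705 and 2401 CPM in 5xFAD. The groups did not overlap, but Il3-/-5xFAD replicate 1 was only 2.65 CPM above 5xFAD replicate 5. The log2 difference was 0.20 ± 0.11 (SE; 95% interval of the fold 0.975 to 1.36, limma adjusted p = 0.390), and ran from 0.15 (without Il3-/-5xFAD replicate 3) to 0.27 (without Il3-/-5xFAD replicate 1). Siglech, on chromosome 7, encodes Siglec-H, a Siglec family receptor that microglia share with plasmacytoid dendritic cells and that signals through the adaptor DAP12. It had 1140, 1118 and 1081 CPM in Il3-/-5xFAD, against 1080, 1084 and 1109 CPM in 5xFAD. Il3-/-5xFAD replicates 1 and 2 lay above all 5xFAD libraries and replicate 3 within their range. Siglech was the gene with the narrowest interval of the 8 (0.902- to 1.15-fold, limma adjusted p = 0.903), and its log2 difference of 0.03 ran from 0.01 (without Il3-/-5xFAD replicate 1) to 0.05 (without Il3-/-5xFAD replicate 3).

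The windows around the transcription starts of Cx3cr1 and Fcrls are shown because these are, of the 3 genes whose groups did not overlap, those for which a RefSeq promoter sequence was at hand (5 of the 8 genes had one). Each runs from 250 bases before the start to 50 bases after it in GRCm38.p6, 5′ to 3′ on the strand of the gene. Capitals mark matches, on either strand, to AGGAAG (a core of PU.1 sites, the myeloid factor that sets microglial identity), a MEF2 pattern (CTA, any 4 bases, TAG) or CAGACA (SMAD, the TGF-beta pathway). Cx3cr1 lies at chr9:120068247-120068546 and Fcrls at chr3:87263475-87263774, both on the minus strand.
Cx3cr1: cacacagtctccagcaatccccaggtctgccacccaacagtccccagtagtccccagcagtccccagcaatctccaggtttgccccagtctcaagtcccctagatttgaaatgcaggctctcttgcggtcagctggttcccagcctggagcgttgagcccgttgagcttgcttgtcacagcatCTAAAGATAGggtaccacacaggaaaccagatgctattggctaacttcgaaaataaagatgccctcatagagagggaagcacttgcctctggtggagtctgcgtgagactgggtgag
Fcrls: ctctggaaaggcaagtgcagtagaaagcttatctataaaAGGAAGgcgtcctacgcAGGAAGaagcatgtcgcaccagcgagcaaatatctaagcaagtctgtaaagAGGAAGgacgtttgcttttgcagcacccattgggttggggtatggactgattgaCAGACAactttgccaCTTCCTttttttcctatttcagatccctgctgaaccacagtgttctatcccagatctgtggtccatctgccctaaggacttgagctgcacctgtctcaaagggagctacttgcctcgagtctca
The Cx3cr1 window held the MEF2 pattern once, from position -67 counted from the start, a match found in 3.69% of all 32851 promoter windows. The Fcrls window held AGGAAG or its complement 4 times, from positions -211, -194, -143 and -74. At least 1 such match occurred in 35.4% of all windows and at least 4 in 0.432%. It also held CAGACA once, from position -89, as did 21.0% of windows at least once. Siglech had 1 CAGACA match, Sparc 2, and Olfml3 1 AGGAAG match. These are matches of letters, and no binding was measured.

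Tmem119 and Selplg lie beside each other on chromosome 5, with 2 RefSeq genes between their starts. Selplg encodes PSGL-1, the ligand by which leukocytes roll on selectins, and is made by many other leukocytes. Tmem119 had 2805, 2286 and 3059 CPM in Il3-/-5xFAD, against 2703, 2346 and 2405 CPM in 5xFAD. Il3-/-5xFAD replicates 2 and 3 were the lowest and the highest of all 6 libraries, so the range of Il3-/-5xFAD held that of 5xFAD within it. The fold was 1.09 (95% interval 0.900 to 1.31, limma adjusted p = 0.681), and the log2 difference of 0.12 ran from 0.03 (without Il3-/-5xFAD replicate 3) to 0.24 (without Il3-/-5xFAD replicate 2), with 0.18 without 5xFAD replicate 4. Selplg had 2403, 2020 and 2537 CPM in Il3-/-5xFAD, against 2332, 2128 and 2145 CPM in 5xFAD. It was lowest and highest in the same libraries as Tmem119, with a fold of 1.05 (95% interval 0.887 to 1.24, limma adjusted p = 0.808). Its log2 difference of 0.07 ran from 0.0022 (without Il3-/-5xFAD replicate 3) to 0.17 (without Il3-/-5xFAD replicate 2), with 0.11 without 5xFAD replicate 4.

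Of the secreted proteins, Sparc encodes osteonectin, a calcium-binding matricellular protein, and Olfml3 an olfactomedin-domain protein of the matrix. Sparc had 4103, 4159 and 4550 CPM in Il3-/-5xFAD, against 4295, 4052 and 4361 CPM in 5xFAD. The groups overlapped, and its log2 difference of 0.01 ± 0.11 (SE; 0.850- to 1.20-fold, limma adjusted p = 0.976) was the smallest of the 8. With 1 library left out it ran from -0.04 (without Il3-/-5xFAD replicate 3) to 0.04 (without Il3-/-5xFAD replicate 1). Olfml3, on chromosome 3, had 2370, 2403 and 2695 CPM in Il3-/-5xFAD, against 2382, 2426 and 2268 CPM in 5xFAD. Only Il3-/-5xFAD replicate 3 lay above all 5xFAD libraries, and the fold was 1.05 (95% interval 0.905 to 1.23, limma adjusted p = 0.760). Its log2 difference of 0.08 ran from 0.02 without that library to 0.11 without Il3-/-5xFAD replicate 1.

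**Figure D2:**
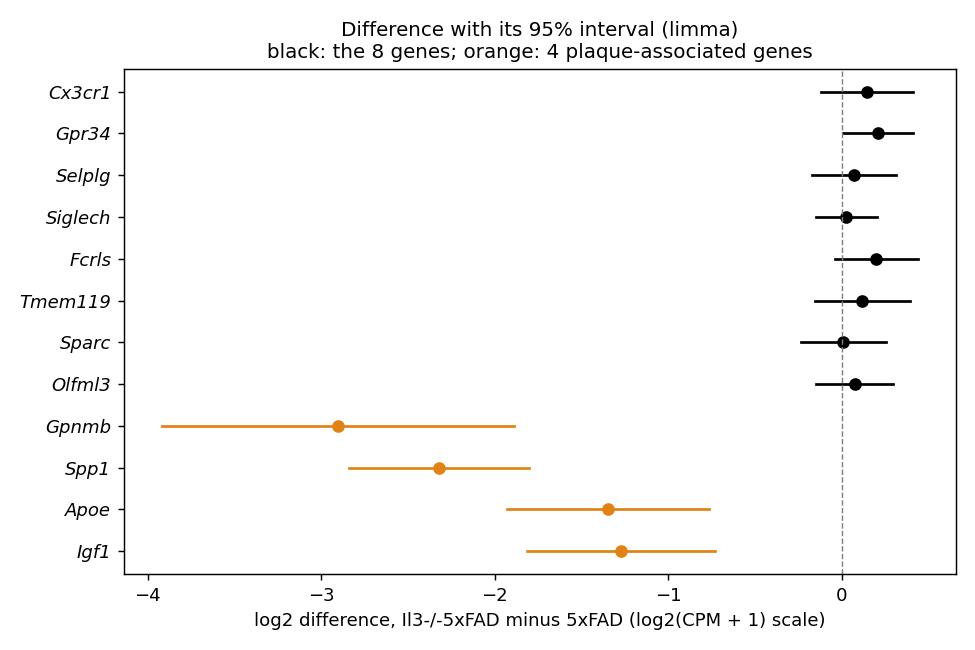
Log2 difference (horizontal axis, Il3-/-5xFAD minus 5xFAD) with its 95% interval from limma for the 8 genes (black) and for the 4 called plaque-associated genes with the largest differences (orange). The 8 points lie between 0.01 and 0.21, and the highest bound of the 4 orange intervals is -0.73 (Igf1).

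Summed, the 8 genes took 23539, 22205 and 24826 CPM in Il3-/-5xFAD replicates 1, 2 and 3, against 22381, 21676 and 21307 CPM in 5xFAD replicates 4, 5 and 6. The groups overlapped, since Il3-/-5xFAD replicate 2 lay below 5xFAD replicate 4. That is 2.35% of all reads in Il3-/-5xFAD and 2.18% in 5xFAD. Per kb of the longest transcript, a choice of length on which the places depend, the order was Sparc (1857 ± 106 CPM per kb in Il3-/-5xFAD and 1842 ± 70.9 in 5xFAD, SD, n = 3), Cx3cr1, Fcrls, Tmem119, Selplg, Gpr34, Siglech and Olfml3 (456 ± 32.8 CPM per kb in Il3-/-5xFAD and 432 ± 14.97 in 5xFAD). This is the order of the means, and only 1 of the 6 libraries showed it in full. Over the 6 libraries the ranges of Sparc and Cx3cr1, of Selplg and Gpr34, and of Gpr34 and Siglech did not overlap, whereas those of Cx3cr1 and Fcrls, Fcrls and Tmem119, Tmem119 and Selplg, and Siglech and Olfml3 did.

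The 8 genes did not follow a common course over the libraries. Within their groups, Tmem119 and Selplg were the pair with the most similar deviations (root-mean-square distance 0.03 on the log2 scale, the smallest of 28 pairs). Tmem119 deviated from its group mean by 0.06, -0.24 and 0.18 in Il3-/-5xFAD replicates 1, 2 and 3 and by 0.12, -0.08 and -0.04 in 5xFAD replicates 4, 5 and 6. Selplg deviated by 0.06, -0.19 and 0.14 in Il3-/-5xFAD and by 0.08, -0.05 and -0.04 in 5xFAD, with the same sign as Tmem119 in all 6. Olfml3 and Fcrls came next (0.04), both lowest in Il3-/-5xFAD replicate 1 and in 5xFAD replicate 6. Tmem119 and Gpr34 were the pair farthest apart (0.16). These pairs were picked out after their values had been seen. Set against the 3979 other tested genes that averaged 50 CPM or more, Btk, Ssb, Dhx34 and Vapa were among the 5 nearest to the mean profile of the 8 over all 6 libraries, with root-mean-square distances of 0.017 to 0.023. The 8 genes themselves lay farther from that mean, at 0.043 (Olfml3) to 0.097 (Tmem119), so nearness to it is not likeness to any 1 of them.

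**Figure D3:**
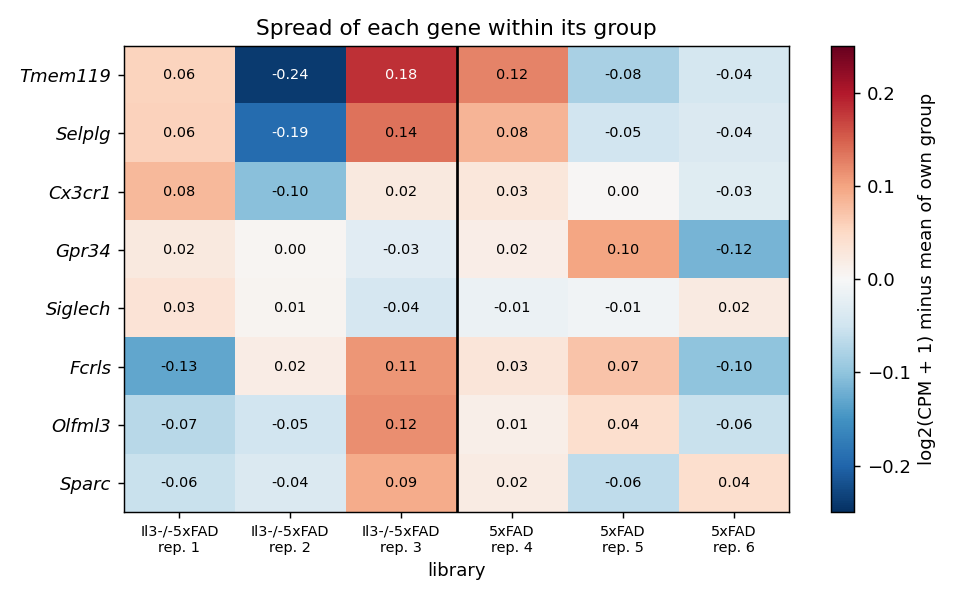
Deviation of each gene in each library from the mean of its own group (log2(CPM + 1), colour and printed value; Il3-/-5xFAD libraries left of the line, 5xFAD libraries right of it). Tmem119 and Selplg share their pattern, with -0.24 and -0.19 in Il3-/-5xFAD replicate 2.

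Other genes of the homeostatic state had a similar median difference, over a wider range that reached from -0.39 (Lag3) to 0.45 (Nav3). Of 37 further tested genes, 31 had a positive difference (49.9% of all tested genes) and the median was 0.11. By limma 0 of them passed, with 11 at an unadjusted p under 0.05 (16.5% of all tested genes). The direction of this list was known from earlier results on these libraries and is no independent evidence. Every Il3-/-5xFAD library was above every 5xFAD library in 10 of the 37 (9.65% of all tested genes), and below in 1, the inhibitory receptor gene Lag3 (11.5% of all tested genes). The most abundant were the protease inhibitor gene Cst3 (15988 ± 1797 CPM in Il3-/-5xFAD and 18335 ± 888 CPM in 5xFAD, SD, n = 3), with a log2 difference of -0.20, and the growth factor receptor gene Csf1r (10136 ± 465 CPM in Il3-/-5xFAD and 9332 ± 302 CPM in 5xFAD), with 0.12. By edgeR 0 of the 37 passed. DESeq2 called 6 (5.09% of all tested genes), of which Mertk, the receptor for phagocytosis of apoptotic cells (0.32), Arhgap5, Cd164, Nav3 and Tanc2 were higher and Lag3 (-0.38) was lower in Il3-/-5xFAD (DESeq2 adjusted p between 0.00498 and 0.0334). Without Il3-/-5xFAD replicate 3, limma called 4 of the 37 (5.08% of all tested genes), Mertk (0.37), Arhgap5 (0.38), Nav3 (0.59) and Tanc2 (0.42), all higher in Il3-/-5xFAD (limma adjusted p between 0.0228 and 0.0396), and 0 of the 8 surface and secreted genes. With array weights, which called 8% of all tested genes, it called 5 of the 37, the same 4 and the small GTPase gene Rhob.

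Of 24 plaque-associated genes, the programme that replaces the homeostatic one around plaques, 8 fell in Il3-/-5xFAD (0.63% of all tested genes did) and 16 did not pass, with a median log2 difference of -0.57. This list and its direction were known from earlier results on these libraries and are no independent evidence. Spp1, which encodes osteopontin, differed by -2.32 (95% interval -2.84 to -1.80), Gpnmb by -2.90 (-3.92 to -1.89), Apoe, the lipid carrier, by -1.35 (-1.93 to -0.76) and the growth factor gene Igf1 by -1.27 (-1.82 to -0.73), with limma adjusted p between 0.000776 and 0.0438. None of these intervals met those of the 8 homeostatic genes, but the 4 were named as the called genes with the largest changes, so this separation was built in. Over the whole list the differences reached from -2.90 (Gpnmb) to 0.06 (Csf1), with -0.22 for Ctsd. By edgeR with TMM factors 5 of the 24 passed (0.504% of all tested genes did). Without 5xFAD replicate 5 or without 5xFAD replicate 6 Spp1 alone passed, without Il3-/-5xFAD replicate 3 13 of the 24 did (5.08% of all tested genes), and with no filter or without the variance trend 0 did.

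**Figure D4:**
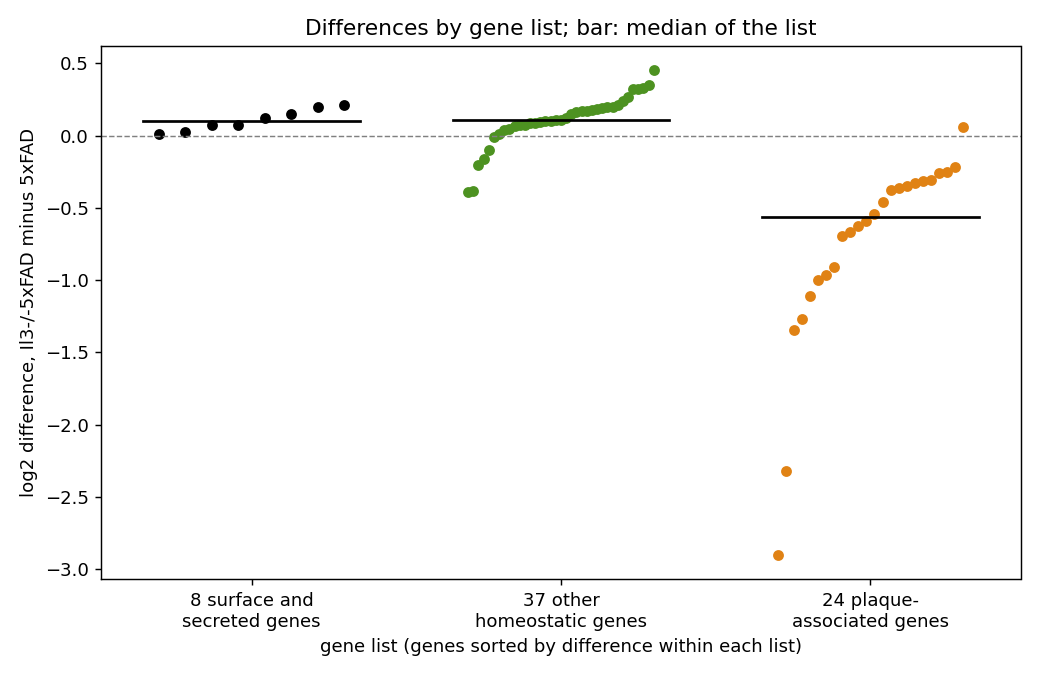
Log2 differences (vertical axis, Il3-/-5xFAD minus 5xFAD) of the 8 genes, of 37 other homeostatic genes and of 24 plaque-associated genes, each point a gene and each bar the median of its list. The medians are 0.10, 0.11 and -0.57.

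Ligands, adaptors and relatives of the 8 genes also held no call by limma. Of 9 tested genes of the fractalkine pathway (ligand, shedding proteases and G protein signalling) 0 passed and 0 had an unadjusted p under 0.05, as 16.5% of all tested genes had. For the PSGL-1 pathway (selectins, glycosylating and sulfating enzymes, cytoskeletal linkers) 0 of 15 passed and 3 had such a p. Gnai2, a G protein subunit downstream of Cx3cr1, and the receptor kinase gene Adrbk1 differed by -0.13 and 0.04. Msn, which encodes the linker moesin that binds the tail of PSGL-1, and the sialyltransferase gene St3gal6 differed by -0.08 and 0.15. Of 15 Siglec relatives and adaptors 0 passed and 4 had an unadjusted p under 0.05 (16.5% of all tested genes). The phosphatase gene Ptpn6 differed by -0.08 and Tyrobp, which encodes DAP12, the partner of Siglec-H, by -0.46 ± 0.14 (SE; limma adjusted p = 0.131). Tyrobp had 556, 754 and 888 CPM in Il3-/-5xFAD, against 903, 1034 and 1044 CPM in 5xFAD, so that the adaptor's groups did not overlap while those of Siglech did. The same gene is also counted among the 24 plaque-associated genes above, so its fall is not a separate result. In 4 of the 15, Tyrobp among them, every Il3-/-5xFAD library was below every 5xFAD library, as in 11.5% of all tested genes. Without Il3-/-5xFAD replicate 3 Tyrobp differed by -0.61 (limma adjusted p = 0.0324), with array weights by -0.53 (limma adjusted p = 0.0211), and DESeq2 called it as well (-0.43, DESeq2 adjusted p = 0.0411). The difference was -0.28 without Il3-/-5xFAD replicate 1 (limma adjusted p = 0.287) and -0.17 after correction for transcript length (limma adjusted p = 0.478). Cd22, which encodes an inhibitory Siglec, had 24.2, 35.8 and 30.6 CPM in Il3-/-5xFAD, against 42.0, 60.2 and 53.9 CPM in 5xFAD, and the groups did not overlap. It differed by -0.77 with a limma adjusted p of 0.0501, and which of the sorted cells its reads came from was not tested. It passed with robust estimation, with array weights, without Il3-/-5xFAD replicate 2 or 3 or 5xFAD replicate 4, and by DESeq2 (adjusted p between 0.00116 and 0.0484), and in the other 13 alternatives it did not (0.0508 to 0.273). The polysialyltransferase gene St8sia4 (-0.42) passed without Il3-/-5xFAD replicate 1 alone (-0.63, limma adjusted p = 0.0396).

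Of 7 tested genes of the lysophosphatidylserine pathway of Gpr34 0 passed and 2 had an unadjusted p under 0.05 (16.5% of all tested genes). Abhd12, the hydrolase that degrades that lipid, and the G protein gene Gna12 differed by -0.02 and 0.04. The only tested relative of Fcrls, Fcrl1, had 35.9 ± 2.93 CPM in Il3-/-5xFAD and 37.9 ± 7.52 CPM in 5xFAD (SD, n = 3). Of 6 tested relatives of Olfml3 and Sparc 0 passed and 1, Olfm4, which neutrophils also make, had an unadjusted p under 0.05 (-1.10 ± 0.29, SE), as did 16.5% of all tested genes. Olfml2b differed by 0.13. By edgeR with TMM factors 0 genes passed in these lists. DESeq2 called 2 of the PSGL-1 pathway, 2 of the Siglec list, 1 of the olfactomedin and SPARC families and 0 of the other 3 (5.09% of all tested genes).

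Sparc is the gene of the 8 on the chromosome of Il3, chromosome 11, with 11 tested genes between Il3 and Sparc. Its neighbourhood differed between the groups although Sparc did not pass. Of the 20 tested genes nearest to Sparc in chromosome order, 10 on each side, 5 passed by limma (against 0.882% of all tested genes), 3 higher and 2 lower in Il3-/-5xFAD. Galnt10, which encodes an enzyme that starts O-linked glycans, was at 120 ± 6.11 CPM in Il3-/-5xFAD and 76.2 ± 2.46 CPM in 5xFAD (SD, n = 3; log2 difference 0.65 ± 0.08, limma adjusted p = 0.00402). Mfap3, a microfibril-associated protein gene (0.62), and Fam114a2 (0.49) also rose, and Anxa6, which encodes a calcium-dependent membrane-binding annexin (-0.55), and the predicted gene Gm12247 (0.321 ± 0.199 CPM in Il3-/-5xFAD and 4.30 ± 0.971 CPM in 5xFAD) fell. Neighbouring genes are not independent of each other. Gm12247 averaged under 1 CPM in Il3-/-5xFAD and passed the filter only through the 5xFAD libraries, so only a fall was open to it. The call of Galnt10 held without any single library, as did that of Gm12247 under this limit. That of Mfap3 was lost without 5xFAD replicate 6, and those of Anxa6 and Fam114a2 were lost without Il3-/-5xFAD replicate 2 and without 5xFAD replicate 5 or 6. Without these 3 libraries in turn 3, 3 and 2 of the 20 passed, and with no filter or without the variance trend 1 did. In the same 20, edgeR with TMM factors called 5 (0.504% of all tested genes) and DESeq2 6 (5.09%).

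**Figure D5:**
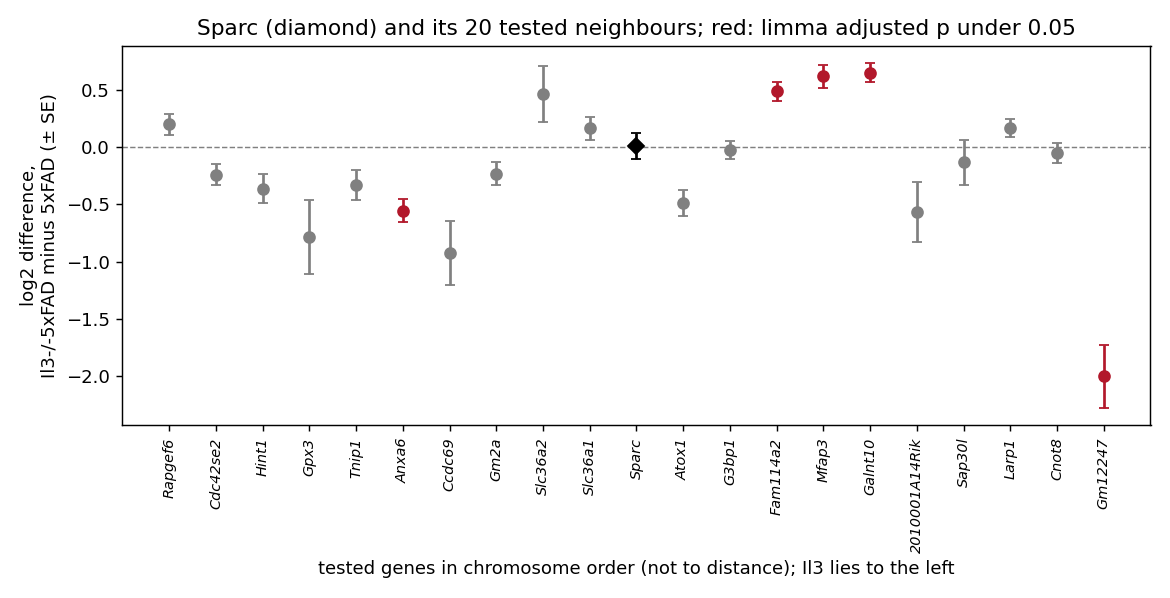
Log2 differences ± SE (vertical axis, Il3-/-5xFAD minus 5xFAD) of Sparc (black diamond) and the 10 tested genes on each side of it in chromosome order, with limma calls in red. Sparc lies at 0.01, between Anxa6 at -0.55 and Galnt10 at 0.65.

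Markers of several other cell types were lower in Il3-/-5xFAD, and their part in the small differences of the 8 genes was not tested. The gate for CD45 and CD11b admits neutrophils, monocytes, border-associated macrophages and many NK cells. It would remove choroid plexus, endothelial and mural cells, astrocytes, oligodendrocytes and most T and B cells, whose markers had reads nonetheless. In bulk libraries, fewer cells of a type and less RNA per cell cannot be told apart. Neutrophils, monocytes and lymphocytes also express Selplg, and monocytes Cx3cr1. Beside the counts that follow, 0.63% of all tested genes fell by limma. Summed neutrophil markers (14 genes, 5 of 13 tested fell) ran from 911 to 1471 CPM in Il3-/-5xFAD and from 1921 to 3993 CPM in 5xFAD. Monocyte markers (12 genes, 3 of 10 tested fell) ran from 116 to 234 CPM in Il3-/-5xFAD and from 254 to 430 CPM in 5xFAD. Markers of T, B and NK cells (18 genes, 3 of 15 tested fell) ran from 89.7 to 112 CPM in Il3-/-5xFAD and from 149 to 257 CPM in 5xFAD. Choroid plexus markers (7 genes, 2 of 4 tested fell) ran from 63.4 to 131 CPM in Il3-/-5xFAD and from 183 to 518 CPM in 5xFAD. In these 4 lists the ranges of the summed levels did not overlap, but without 5xFAD replicate 6 none of their genes passed (15 of all 11900 tested genes did). Without 5xFAD replicate 5 none of the neutrophil or monocyte genes passed (38 of all tested genes did). Without Il3-/-5xFAD replicate 2, 1 T, B or NK cell gene passed (59 of all tested genes did). Without Il3-/-5xFAD replicate 3, 8 neutrophil genes, 5 T, B or NK cell genes and 1 choroid plexus gene passed (605 of all tested genes did). Without Il3-/-5xFAD replicate 1, 5 monocyte genes and 1 choroid plexus gene passed (139 of all tested genes did), and without 5xFAD replicate 4, 11 neutrophil genes (227 of all tested genes). In the neutrophil, monocyte, lymphocyte and choroid plexus lists edgeR with TMM factors called 0, 2, 2 and 0 genes (0.504% of all tested genes) and DESeq2 7, 5, 6 and 2 (5.09%). Median-ratio rescaling and length correction each left 0, 3, 2 and 0 calls, robust estimation 0, 1, 3 and 0, and no filter or no variance trend 0 in all 4. Over all tested genes these settings called 68, 60, 115, 8 and 10.

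Endothelial and mural cells make Sparc, and their markers ran from 141 to 164 CPM in Il3-/-5xFAD and from 161 to 205 CPM in 5xFAD, with 0 of 13 tested passing by limma. Plasmacytoid dendritic cells express Siglech, and their markers ran from 13.8 to 24.4 CPM in Il3-/-5xFAD and from 16.3 to 35.8 CPM in 5xFAD, with 0 of 2 passing. Markers of astrocytes and oligodendrocytes ran from 297 to 313 CPM in Il3-/-5xFAD and from 335 to 389 CPM in 5xFAD, with 0 of 9 passing. Border-associated macrophage markers ran from 1124 to 1303 CPM in Il3-/-5xFAD and from 945 to 1025 CPM in 5xFAD, with 0 of 11 passing. Their sum was higher in Il3-/-5xFAD although 3 of the 11 had a positive difference and the median log2 difference was -0.33. The groups did not overlap in 1 higher and 3 lower markers (9.65% and 11.5% of all tested genes). In the endothelial and mural, plasmacytoid dendritic cell, astrocyte and oligodendrocyte, and border-associated macrophage lists 6, 1, 5 and 5 genes had an unadjusted limma p under 0.05 (16.5% of all tested genes). In the same lists edgeR with TMM factors called 0 in each (0.504% of all tested genes), and DESeq2 called 2, 1, 3 and 1 (5.09%). None of the markers in the table was without reads in all 6 libraries. Transcript length moved with genotype as well. The median log2 difference was -0.14 in the 2351 shortest of the tested genes and 0.09 in the 2351 longest, and after correction for length the 8 genes ran from 0.02 (Olfml3) to 0.26 (Gpr34).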

How the data were processed

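The authors deposited 1 table of CPM (counts per 1000000 reads counted on genes), 20129 genes by 6 libraries, each column summing to 1000000. Per the labels' protocols, libraries were made with a polyA-selecting directional kit. STAR, HTSeq, edgeR and mm9 are listed in the submitters' processing notes; tool versions, annotation, strand setting and filters: not given in the sources used here. All values were whole multiples of 1 read (100%, tolerance 0.01 reads), so reads were recovered. The groups share no replicate number. P-values measure the spread between 3 pools per group, and within a group any pair of libraries differed by far more than counting noise (chi-square per degree of freedom at least 22.1).

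The tested genes reached 1 CPM in 3 or more libraries (11900, 59.1%). They were fitted with limma 3.58.1 in R 4.3.3 (eBayes with trend, two-sided) on log2(CPM + 1) as Il3-/-5xFAD minus 5xFAD. P-values were adjusted by Benjamini-Hochberg over all of them, with 95% intervals from the same fit. Fold changes are on that scale. Alternatives were pseudocounts, filters, scalings, variance settings, array weights, length correction (lowess span 0.3), leaving out each library, edgeR 4.0.16 and DESeq2 1.42.0 on the recovered reads. The limma step was tested on simulated data.

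The 8 genes, the lists and the tests were chosen with earlier results on these data known. Named were all 8 genes, up to 4 called members of each list by size or else the 2 most abundant, called neighbours of Sparc, the 5 genes of most similar profile (centred log2 values), Il3 and the sort markers. Not every gene that these rules select is reported here. Lag3 and the genes that passed only in an alternative were named after their values had been seen. Transcript lengths (longest GENCODE M21 transcript, 19480 genes), chromosome order and promoters (RefSeq) come from GRCm38, not the build of the deposited table. Stretches of 50 bases shared with transcripts of other genes made up at most 1.27% of any of the 8 genes (Selplg), and exons of another gene on the opposite strand overlapped 1.73% of Cx3cr1 and none of the other 7. Figures were drawn with matplotlib 3.10.9.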

Additional observations from a re-analysis of the deposited data

How the results depend on the processing

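None of the 8 genes passed in any of the 19 alternatives, whose adjusted p for these genes ran from 0.110 (Gpr34) to 0.994 (Selplg). Cx3cr1, Gpr34, Fcrls and Tmem119 stayed positive in all of them. With quantile normalization, Siglech, Olfml3 and Selplg turned to -0.029, -0.017 and -0.013, and 5 of the 8 were positive. Sparc turned to -0.012 with array weights, and ran from -0.035 (without Il3-/-5xFAD replicate 3) to 0.039 over the libraries left out, with -0.021 without 5xFAD replicate 5. The cause was not tested. The order per kb rests on the length used: 6 of the 8 genes changed place with no length and all 8 with the median length of coding transcripts. Over all genes limma called 105, against 8 with no filter, 10 without the variance trend, 68 with a mean of at least 5 CPM, 68 with median-ratio rescaling, 60 with length correction, 952 with array weights, 60 and 69 by edgeR with TMM factors and with library totals, 605 by DESeq2, and 15 (without 5xFAD replicate 6) to 605 (without Il3-/-5xFAD replicate 3) with a library left out. No paired analysis was possible because the groups share no replicate number. Counting error at the read depth of the 8 genes, at most 0.575%, lay below the spread between libraries of a group, whose coefficient of variation was at least 1.42% (Siglech in 5xFAD).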
